A study of Homo sapiens with 47 samples.

Results

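CYP1B1 and the aryl hydrocarbon receptor (AHR) genes were followed cell by cell in LM2 circulating tumor cells (CTCs) and in LM2 cells from culture. The set consisted of 6 listed genes, CYP1B1, CYP1A1, AHR, ARNT, TIPARP and AHRR, of which 5 had a row among the 25739 genes of the expression table and AHRR had no row in the table. The genes were selected on earlier values of these same cells, the difference of CYP1B1 between CTCs and cultured cells, so the contrast of CTCs with culture is given for them as a description without a test.

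MDA-MB-231-LM2 (LM2) is a metastatic derivative of a human triple-negative breast cancer (TNBC) line, here labeled with GFP through a lentivirus. Tumors were grown from LM2 cells placed in the mammary fat pad of young adult NSG mice, which lack mature lymphocytes and NK cells, and blood was drawn when tumors had reached their terminal volume. Parsortix enrichment kept cells of the blood by size, and the captured cells were stained for CD45, a marker for negative selection. GFP-positive cells were picked singly and sequenced by SMARTseq2 after PCR, the cycle number of which varied from cell to cell. Values were available for 37 CTCs (2 from mouse 5541, 4 from 5542, 10 from 5545, 17 from 5546 and 4 from 5549) and for 6 cells of the same line grown in dish culture with serum, which count as 1 culture without a replicate. All cells carried the same batch label, and the labels name no treatment of mice or cells. Cultured cells LM-P3 and LM-P4 carry a letter P, the meaning of which was not given in the sources used here. They had the most genes detected of any cell, 12271 and 11814, and both had reads of CYP1B1, AHR, ARNT and TIPARP. Growth in the host, passage through blood and enrichment cannot be told apart in a difference between CTCs and culture.

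Reads on genes ranged from 469614 to 2041333 per CTC and from 776949 to 1186197 per cultured cell. Genes detected ranged from 2227 to 11010 with a median of 7353 in CTCs and from 7226 to 12271 with a median of 9768.5 in cultured cells. Of 8 markers listed for LM2 cells, VIM, AXL, CAV1, KRT18 and CD44 had reads in 37 of 37 CTCs and in all 6 cultured cells, EGFR in 33 CTCs and 6 cultured cells, TGFBI in 31 and 5, and MMP1 in only 5 and 3. In addition, 3 receptor genes were listed as low in TNBC. The estrogen receptor gene ESR1 had reads in 1 CTC and PGR in 3 CTCs, and neither had a read in a cultured cell. ERBB2 reached 30.2 normalized counts in CTCs and 24.2 in culture. Hemoglobin and other erythroid markers summed to between 0 and 15571 normalized counts per CTC with a median of 1289, and all 6 erythroid markers with a row were at 0 in the cultured cells. The 10 leukocyte and myeloid markers with a row summed to between 0 and 828 normalized counts per CTC with a median of 46.2, against 0 to 15.5 in culture, where PTPRC, ITGAM, FCGR3A, S100A9, TYROBP and MS4A1 were at 0. The host was a mouse and reads were aligned to the human genome only. The species from which the reads of these blood markers came was not tested. A normalized count is the number of reads on a gene divided by the size factor of its cell.

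AHR is a ligand-activated transcription factor of the bHLH-PAS family that rests in the cytoplasm bound to HSP90 and p23. Ligands such as dioxins, polycyclic hydrocarbons and tryptophan metabolites send it to the nucleus, where it pairs with ARNT and binds DNA at a short core, and CYP1A1 and CYP1B1 are the classical genes it induces. CYP1B1 is a heme monooxygenase that oxidizes estradiol and polycyclic hydrocarbons, and AHRR and TIPARP (PARP7) are induced by the receptor and feed back on it. CYP1B1 expression is known from many breast tumors and breast cancer lines.

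The core bound by AHR with ARNT reads GCGTG on 1 strand and CACGC on the other. RefSeq promoters on GRCh38.p14 were matched by symbol for 5 of the 6 listed genes, all but CYP1B1. The 250 bases before the start are shown for CYP1A1 and TIPARP, the induced members with both a row and a matched promoter. They are also shown for NQO1 and AREG, listed target genes that stood on opposite sides of the comparison below. Each sequence runs 5′ to 3′ on the strand of its gene, and capitals mark each core in either orientation.
CYP1A1, chr15:74725529-74725778, minus strand: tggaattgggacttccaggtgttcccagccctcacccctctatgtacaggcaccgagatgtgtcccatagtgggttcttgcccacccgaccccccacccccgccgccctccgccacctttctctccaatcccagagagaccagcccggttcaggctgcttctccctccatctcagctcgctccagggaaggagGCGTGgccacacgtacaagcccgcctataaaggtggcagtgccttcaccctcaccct
TIPARP, chr3:156674340-156674589, plus strand: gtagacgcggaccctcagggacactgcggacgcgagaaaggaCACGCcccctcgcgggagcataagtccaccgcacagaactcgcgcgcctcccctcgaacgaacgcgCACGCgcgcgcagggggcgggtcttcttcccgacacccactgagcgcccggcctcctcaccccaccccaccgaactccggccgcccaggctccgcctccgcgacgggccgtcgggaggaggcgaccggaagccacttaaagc
NQO1, chr16:69726561-69726810, minus strand: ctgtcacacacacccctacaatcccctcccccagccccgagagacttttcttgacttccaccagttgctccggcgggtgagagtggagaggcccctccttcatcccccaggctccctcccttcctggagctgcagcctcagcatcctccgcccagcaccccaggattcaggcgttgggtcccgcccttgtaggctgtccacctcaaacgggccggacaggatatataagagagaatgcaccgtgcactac
AREG, chr4:74444886-74445135, plus strand: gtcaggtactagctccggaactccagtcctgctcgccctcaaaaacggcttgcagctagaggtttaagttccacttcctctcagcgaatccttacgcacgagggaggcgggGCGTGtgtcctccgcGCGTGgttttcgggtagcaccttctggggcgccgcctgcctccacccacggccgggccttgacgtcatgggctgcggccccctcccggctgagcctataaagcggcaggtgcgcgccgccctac
The core began 57 bases before the start in CYP1A1, 208 and 142 bases before it in the most upstream of the 3 TIPARP entries, and 139 and 124 bases before it in AREG, and it was not in this window of NQO1 or of the other 2 TIPARP entries. Other listed targets that were lower in the comparison below differed in this respect. The window of SLC7A5 held 1 core, some ABCG2 entries held 2 and others 0, and IL1B held 0. By comparison, 32.2% of 35116 RefSeq promoters held at least 1 core in a window of the same length and 10.2% held at least 2. A match describes the letters of the window and is not evidence of binding.

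The receptor itself had at least 1 read in most CTCs, and a normalized count of at least 8 in 18 of 37. AHR (ENSG00000106546, GRCh38 chr7:16916359-17346152, plus strand) had reads in 31 of 37 CTCs, a share of 83.8% with an exact 95% binomial interval of 68.0 to 93.8, and in 4 of 6 cultured cells. This interval and the later ones for shares reflect counting error alone and leave out the spread between mice, since the cells come from 5 mice and 17 of them from 1. Its normalized count was 4.23 and 10.7 in the CTCs of mouse 5541, and 0.461, 0.683, 3.19 and 28.6 in those of mouse 5542. In mouse 5549 it was 0.561, 0.67, 11.6 and 113. The CTCs of mouse 5545 ran from 0 through a median of 9.71 to 89.1, and those of mouse 5546 from 0 through a median of 6.30 to 60.3. In culture AHR was 0 in cells LM-1 and LM-10, 2.51 in LM-2, 50.6 in LM-3, 17.8 in LM-P3 and 19.4 in LM-P4. CTCs and cultured cells thus overlapped over the whole range of the culture, and 3 CTCs exceeded its highest cell.

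The mean of AHR over mouse means was 15.4 ± 9.73 normalized counts (SD, n = 5 mice) against a mean of 15.0 in the cultured cells. On the log2 scale with 1 added to both means the ratio was 0.03, from -0.92 in mouse 5541 to 1.02 in mouse 5549, with 3 mice below the culture and 2 above. The sign depended on single cells. Without CTC 5549-6, which had the highest AHR value, the ratio was -0.56, and without mouse 5549 it was -0.38. Without LM-3, the cultured cell with the highest AHR value, it was 0.87. CTC 5549-6 was also the CTC with the largest erythroid sum, 15571, and the largest leukocyte sum, 828, with 12 reads of the leukocyte gene PTPRC. The next highest, 5545-4 with an AHR count of 89.1, had an erythroid sum of 8.48, a leukocyte sum of 12.7 and no PTPRC read. Without the 4 CTCs of the highest summed leukocyte and erythroid markers the AHR ratio was -0.54, and the part of blood RNA in the AHR values was not tested. In GENCODE release 44, 29.5% of the exon bases of AHR are shared with an unnamed protein-coding gene on the same strand that has no row in the table, so reads there could have been dropped or split by the counting.

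ARNT, the partner AHR needs to bind DNA, was less often read. ARNT (ENSG00000143437, GRCh38 chr1:150809713-150876708, minus strand) had reads in 17 of 37 CTCs, 45.9% with an exact 95% interval of 29.5 to 63.1. Mouse 5546 held 12 of these 17 cells, mice 5545 and 5549 held 2 each, mouse 5541 held 1 and mouse 5542 held none. Among CTCs the highest ARNT counts were 45.3 in 5546-s6 and 38.5 in 5546-s8, and 23.6 in 5541-1 came next. In culture ARNT was 0 in LM-1, LM-10 and LM-3, 11.3 in LM-2, 20.2 in LM-P3 and 27.4 in LM-P4. The ranges overlapped, and the mean over mouse means was 4.94 ± 5.14 (SD, n = 5 mice) against 9.82 in culture, a log2 ratio of -0.87. The mice spread from -3.44 in mouse 5542 to 0.24 in mouse 5541, which rests on 2 cells. Relative to the median ratio of all genes tested, ARNT stood at 0.34.

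Both partners were read together in 14 of 37 CTCs, where AHR was read in 31 and ARNT in 17. AHR was read without ARNT in 17 CTCs, ARNT without AHR in 3, and neither in 3. Of the 14 CTCs with both, 10 came from mouse 5546 and none from mouse 5542. In culture, 3 cells had reads of both, 1 had AHR alone and 2 had neither. A gene at 0 in a single SMARTseq2 library may still have been transcribed, so these counts describe detection at this depth. When every cell was thinned to 469614 reads, AHR stayed detectable in 29 CTCs and ARNT in 15, and both in 3 cultured cells. A normalized count of at least 8 was reached by AHR in 18 CTCs, by ARNT in 7 and by TIPARP in 8. In culture each of these genes reached it in 3 cells.

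**Figure D1:**
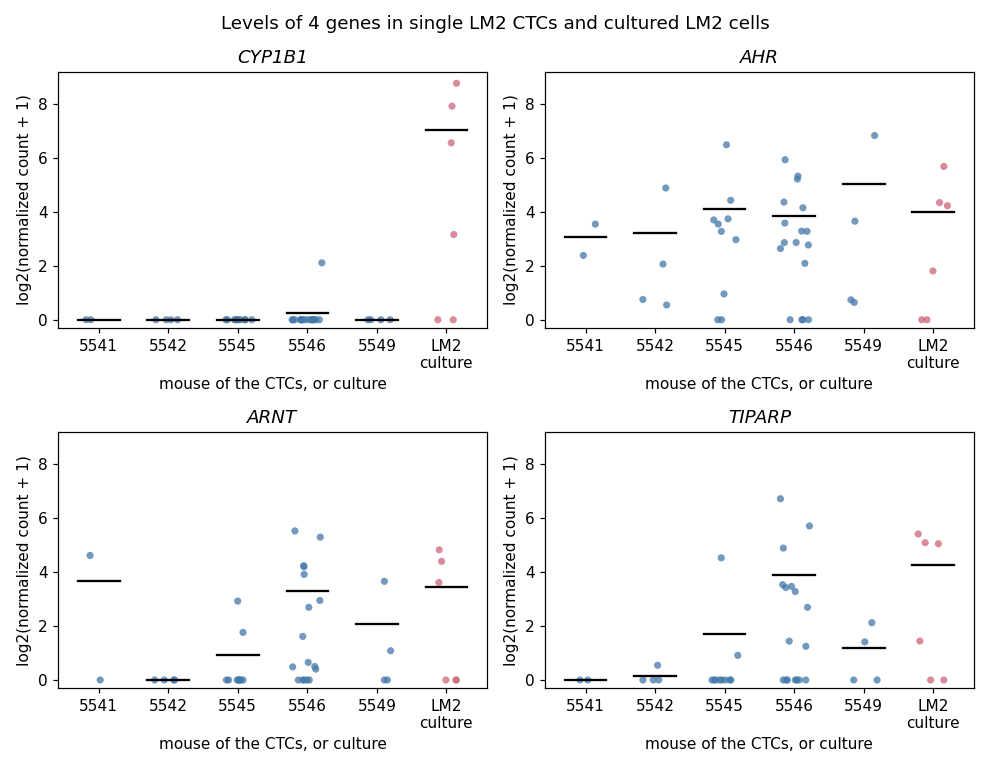
Normalized counts of CYP1B1, AHR, ARNT and TIPARP on a log2 axis with 1 added, with 1 point per cell and a bar at the mean of each group, for the CTCs of 5 mice (blue) and for 6 cultured LM2 cells (red). CYP1B1 lies at 0 in all but 1 of 37 CTCs and reaches 438 in culture, while the other genes spread over a similar range in both.

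CYP1B1 was nearly absent from the CTCs. CYP1B1 (ENSG00000138061, GRCh38 chr2:38066973-38109902, minus strand) had reads in 1 of 37 CTCs, 2.7% with an exact 95% interval of 0.0684 to 14.2, and in 4 of 6 cultured cells. In culture its normalized count was 438 in LM-3, 242 in LM-P4, 93.8 in LM-P3 and 7.96 in LM-1, and it was 0 in LM-2 and LM-10. The positive CTC was 5546-c6, with 8 reads and a normalized count of 3.33, which lies below each of the 4 positive cultured cells. That CTC had 10331 genes detected, and it also had reads of AHR, ARNT and TIPARP, at 8.73, 0.416 and 8.73 normalized counts.

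Summed over cells, CYP1B1 took 553 reads in culture, or 100.1 RPM (reads of the gene scaled to the total of the cells), and 8 reads in the CTCs, or 0.172 RPM. The ratio of these pooled levels was 584, and with the counting limits of the 8 reads it ran from 296 to 1352. Against mouse 5546 alone the ratio was 265. LM-3 gave 320 of the 553 culture reads, and without it the pooled ratio was 297 and the ratio against mouse 5546 was 135. The remaining mice had no CYP1B1 read, and their picked CTCs were set against a floor of 3 reads over the group. The pooled culture level was at least 93.9-fold above this floor for mouse 5541 and at least 213-fold above it for mouse 5542. It was at least 396-fold above the floor for mouse 5545 and at least 148-fold above it for mouse 5549. Without LM-3 these bounds were 47.8-, 109-, 201- and 75.2-fold. The bounds differ with the depth of each mouse and are no ranking of the mice. They hold for the pooled reads of the picked cells and are no lower limit for a mouse. Cultured cells LM-2 and LM-10 had no CYP1B1 read either. By the exact interval, the share of CTCs with a read could reach 84.2% in mouse 5541 and 60.2% in mice 5542 and 5549. In mouse 5545 it could reach 30.8%. SMARTseq2 reads carry no molecular identifiers, so floors and intervals cover counting error only.

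A gene was called by a rule of size when, in all 5 mice and in the same direction, its CTC mean and the culture mean were 4-fold or more apart after adding 1 to each, and the larger mean was at least 8. Of 9164 genes tested, 487 were lower in CTCs by this rule (5.31%) and 6 were higher (0.0655%). Of the 5 members with a row, 4 passed the minimum mean and 1, CYP1B1, was called lower. The genes were chosen by this contrast, so nothing is read from that count. The median log2 ratio was -1.48 over the 4 members and -1.20 over all genes tested. CYP1B1 stood at -6.98, which is -5.78 relative to the median of all genes. Over the mice it ran from -7.04 to -6.78. The mice without a CYP1B1 read all stand at -7.04, a value set by the added 1 and the culture mean alone. This narrow range is therefore no measure of the spread between mice. Scaled to RPM, the median of all genes was -0.45 and CYP1B1 stood at -6.57. Only 1.22% of the calls were in the higher direction with the deposited scaling, 8.05% with RPM, and 64.5% when each mouse was centred on its own median, so the direction of calls depended on the scaling. CYP1B1 was lower under each of these 3 scalings, but a CTC at 0 stays at 0 under any scaling, so this adds no support.

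Genes as abundant as CYP1B1 in culture were read in most CTCs. Counting CYP1B1, 1997 genes had a culture mean of at least its 130.2 normalized counts. These genes had reads in a median of 34 CTCs, 1975 of them had reads in at least 19 CTCs, and CYP1B1 was the 1 gene with reads in at most 1 CTC. In the wider set of 9394 genes with reads in at least 4 cultured cells, 37 had reads in at most 1 CTC. CYP1B1 ranked first among these 37 by culture mean, GPRC5C followed with 74.6 and ALDH3A1, another enzyme induced through AHR, with 69.9. This rank rested on LM-3, and without that cell the means were 89.5 for GPRC5C, 83.9 for ALDH3A1 and 68.8 for CYP1B1. The place of CYP1B1 as the 1 gene among the 1997 rested on LM-3 too, as GPRC5C and ALDH3A1 exceeded it without that cell. VIPR1, a receptor for vasoactive intestinal peptide, had 44.8 and TGFA, a ligand of EGFR, had 12.9. The cutoffs of 130.2 normalized counts, 4 cultured cells and 1 CTC were the values of CYP1B1 itself. They were set after these values had been seen, so the counts are a description and no test.

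**Figure D2:**
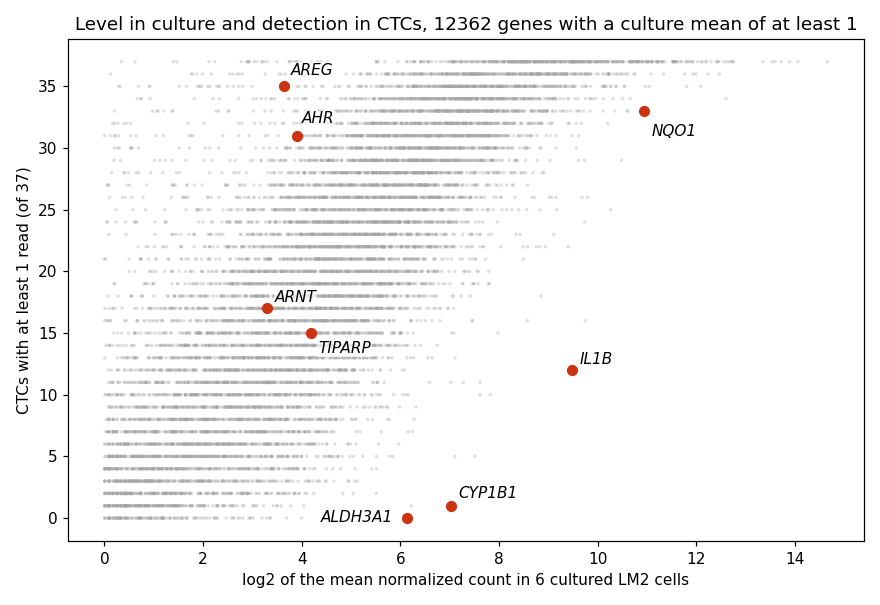
Number of the 37 CTCs with at least 1 read of a gene against the log2 mean normalized count of that gene in 6 cultured LM2 cells, with 1 point for each of 12362 genes whose culture mean was at least 1. CYP1B1 with 1 CTC and ALDH3A1 with 0 CTCs lie at the lower edge, where genes of like culture level have reads in most CTCs, and AHR lies with 31 CTCs among genes of its level.

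CYP1B1 was also set beside the number of genes read in each cell, which was lower in 17 of 37 CTCs than in every cultured cell. Of the 20 CTCs with at least as many genes as the gene-poorest cultured cell, 1 had a CYP1B1 read, and none of the 17 CTCs with fewer genes had one. LM-3, the cultured cell with the most CYP1B1, had 7247 genes detected, fewer than the median CTC, and LM-2 and LM-10, which had none, had 8267 and 7226. After thinning to equal depth, CYP1B1 was still read in 1 CTC and in 4 cultured cells. In the subset of 20 gene-rich CTCs the AHR ratio was -0.79.

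**Figure D3:**
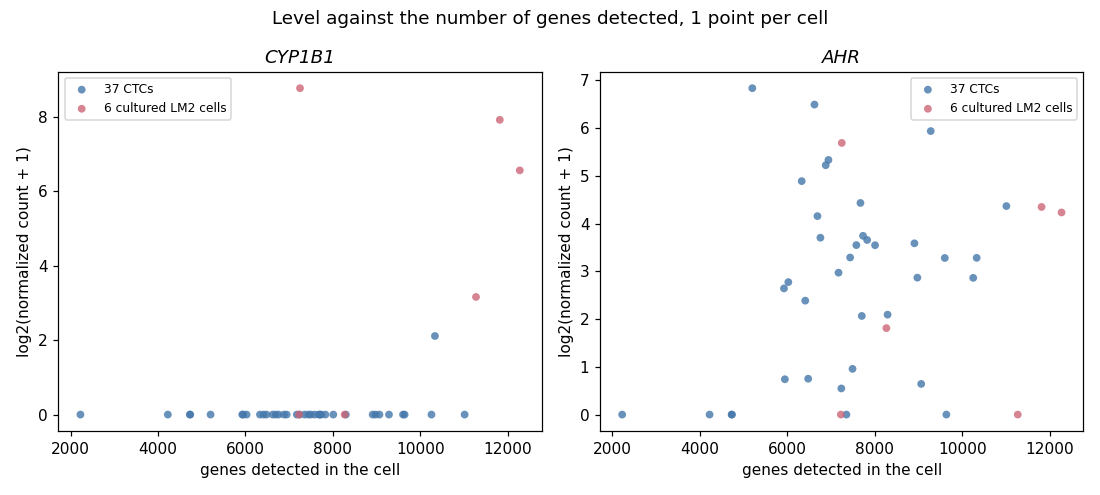
Normalized count of CYP1B1 (left) and AHR (right) on a log2 axis with 1 added against the number of genes detected, with 1 point per cell, for 37 CTCs (blue) and 6 cultured LM2 cells (red). CTCs with over 7226 genes lie at 0 for CYP1B1 with 1 exception, and the cultured cell with the highest value, 438, is among the gene-poor ones.

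Few reads fell on the genes that overlap CYP1B1. CYP1B1-AS1, an antisense lncRNA that shares 11.3% of the exon bases of CYP1B1, had no read in any cultured cell and 7 reads over 3 CTCs. RMDN2, which lies on the opposite strand and shares 1.59%, took 34 reads in 3 cultured cells and 81 reads in 7 CTCs. Strand was not used in the counting, so reads in the shared bases cannot be assigned between a gene and its antisense partner.

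CYP1A1, the other classical enzyme of the pathway, was at the limit of detection in both groups. CYP1A1 (ENSG00000140465, GRCh38 chr15:74719542-74725536, minus strand) had 3 reads in cultured cell LM-P3, a normalized count of 3.56, and none in the other 5 cultured cells or in any CTC. The 0 of 37 CTCs allows a share of up to 8.11% of cells with a read by a floor of 3 cells, or 9.49% by the exact 95% interval, and the floor of 3 reads corresponds to 0.0643 RPM over all CTCs. No fold is given, because the culture lay at its own floor of 3 reads. CYP1A2 and UGT1A6, which are induced along with CYP1A1 in liver, had no row in the table.

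TIPARP, the mono-ADP-ribosyltransferase that feeds back on AHR, was read mainly in CTCs of mouse 5546, which gave 17 of the 37 CTCs. TIPARP (ENSG00000163659, GRCh38 chr3:156673235-156706770, plus strand) had reads in 15 of 37 CTCs, 40.5% with an exact 95% interval of 24.8 to 57.9, and in 4 of 6 cultured cells. Mouse 5546 held 10 of the 15 CTCs and mice 5545, 5549 and 5542 held 2, 2 and 1, with counts up to 105 in 5546-s8 and 51.6 in 5546-s4. Elsewhere the highest CTC was 5545-1 at 22.2, and mouse 5541 had no read. In culture TIPARP was 41.8 in LM-1, 33.2 in LM-P3, 32.3 in LM-P4 and 1.72 in LM-10, and it was 0 in LM-2 and LM-3. The values overlapped, and 2 CTCs exceeded the highest cultured cell. The mean over mouse means was 3.48 ± 5.80 (SD, n = 5 mice) against 18.2, a log2 ratio of -2.10, with mouse 5546 at -0.38 and mouse 5541 at -4.26. Relative to the median of all genes this is -0.89.

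In mouse 5546 the libraries are named with the letter c or s, the meaning of which was not given in the sources used here. TIPARP was read in 7 of 9 c libraries and 3 of 8 s libraries, ARNT in 8 of 9 and 4 of 8, and AHR in 8 of 9 and 5 of 8. The c libraries had 7438 to 11010 genes detected and the s libraries 4225 to 6942, with no overlap, and the part of this difference in the detection of the members was not tested. The highest single values of ARNT and TIPARP were in s libraries. TIPARP was read together with AHR in 14 of its 15 CTCs, beside 31 of all 37 CTCs with an AHR read. AHR, ARNT and TIPARP were read together in 9 CTCs. Of these 9, 7 came from mouse 5546. Over the 37 CTCs, Spearman's ρ with the number of genes detected was 0.488 for TIPARP, 0.204 for AHR and 0.236 for ARNT. These ρ values describe cells that share mice, and the differences between mice were not tested because cells are not replicates of a condition.

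Per kilobase of exon the order of the genes differed between culture and CTCs. In culture the mean normalized count per kilobase was 21.6 for CYP1B1, 3.79 for TIPARP, 1.87 for AHR, 1.52 for ARNT and 0.177 for CYP1A1. Over all 37 CTCs together, 17 of them from mouse 5546, it was 1.89 for AHR, 1.47 for TIPARP, 0.816 for ARNT, 0.0149 for CYP1B1 and 0 for CYP1A1. TIPARP stood at 2.86 per kilobase in mouse 5546 and at most at 0.480 in the other mice. By these means CYP1B1 was first in culture and second to last in CTCs. TIPARP, AHR and ARNT overlapped cell by cell in both groups, and their order among each other lies within that spread. In LM-3 alone, CYP1B1 stood at 72.6 per kilobase and AHR at 6.28. CYP1B1 was also first in LM-P3 and LM-P4. In LM-1 it stood at 1.32 against 8.70 for TIPARP, and it was 0 in LM-2 and LM-10.

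The wider targets of AHR did not move together. Of 24 listed target genes other than the members, 22 had a row and 17 passed the minimum mean. AREG, which encodes the EGFR ligand amphiregulin, was higher in CTCs by the rule of size, and NQO1, ALDH3A1, IL1B, ABCG2 and SLC7A5 were lower, against 0.0655% and 5.31% of all genes. The median ratio of the 17 was -1.28, close to the -1.20 of all genes. When each mouse was centred on its median, ALDH3A1 remained lower, AREG remained higher, EREG, which encodes the EGFR ligand epiregulin, was added to the higher genes, and NQO1, IL1B, ABCG2 and SLC7A5 were no longer called. With RPM values centred in the same way, ALDH3A1 and AREG kept their calls and EREG was not called.

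NQO1 encodes a quinone reductase that is induced through AHR and through NRF2. Its normalized count ran from 1391 to 2802 over the 6 cultured cells and from 0 through a median of 93.7 to 2088 over the 37 CTCs. Only 1 CTC reached the range of the culture, and 36 lay below its lowest cell. Among listed genes that were not called, the number of CTCs below the lowest cultured cell reached 35, for the chaperone gene PTGES3. It was 0 where a cultured cell had no read, as for AHR. For NQO1 and the genes below, the share of all genes with such counts was not computed. The mouse means of NQO1 lay between 146 and 247 against 1960 in culture, a log2 ratio of -3.45 or -2.25 relative to all genes. The NQO1 window printed above held no core, while that of SLC7A5, also called lower, held 1.

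ALDH3A1 encodes an aldehyde dehydrogenase of the dioxin response. It was 322 in LM-10, 48.4 in LM-P4, 25.9 in LM-1, 21.4 in LM-P3 and 1.25 in LM-2, and it was 0 in LM-3. No CTC had a read of it, against 249 reads in culture. The pooled culture level was at least 701-fold above the floor of 3 reads over all picked CTCs. LM-10 gave 187 of the 249 culture reads, and without it the bound was 203-fold. The highest cultured cells differed between ALDH3A1 and CYP1B1, as LM-3 had the highest CYP1B1 and no ALDH3A1, and LM-10 had the highest ALDH3A1 and no CYP1B1.

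AREG stood in the opposite direction. It was between 0 and 23.9 in the 6 cultured cells and between 0 and 4006 in the CTCs, with a median of 88.0, and 28 of 37 CTCs exceeded the highest cultured cell. The mouse means ran from 159 in mouse 5546 to 1036 in mouse 5549, a log2 ratio of 5.25. The mean of mouse 5549 rests on 1 cell at 4006, and the median of its 4 CTCs was 51.2. EREG had a mouse ratio of 1.45, all 5 mice lying above the culture, and 21 of 37 CTCs exceeded the highest cultured cell at 141. EGR1, an immediate early gene, had a mean of 282 over CTCs through 1 value of 8982 in mouse 5549, while the median CTC was at 10.3 and culture at a mean of 33.0.

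The other target genes called lower were IL1B, ABCG2 and SLC7A5. IL1B, the proinflammatory cytokine, was 3105 in LM-1, 859 in LM-P3 and 279 in LM-P4, and it was at most 20.5 in the rest. In CTCs IL1B was read in 12 of 37 cells with a maximum of 303. ABCG2, a drug efflux pump, was at most 21.3 in culture and was read in 2 CTCs. SLC7A5, a transporter of tryptophan and other large amino acids, ran from 22.4 to 543 in culture, and 26 of 37 CTCs lay below its lowest cultured cell. CCND1, which encodes cyclin D1, was the target with the highest mean in CTCs, at 663 against 1400 in culture, and was not called.

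**Figure D4:**
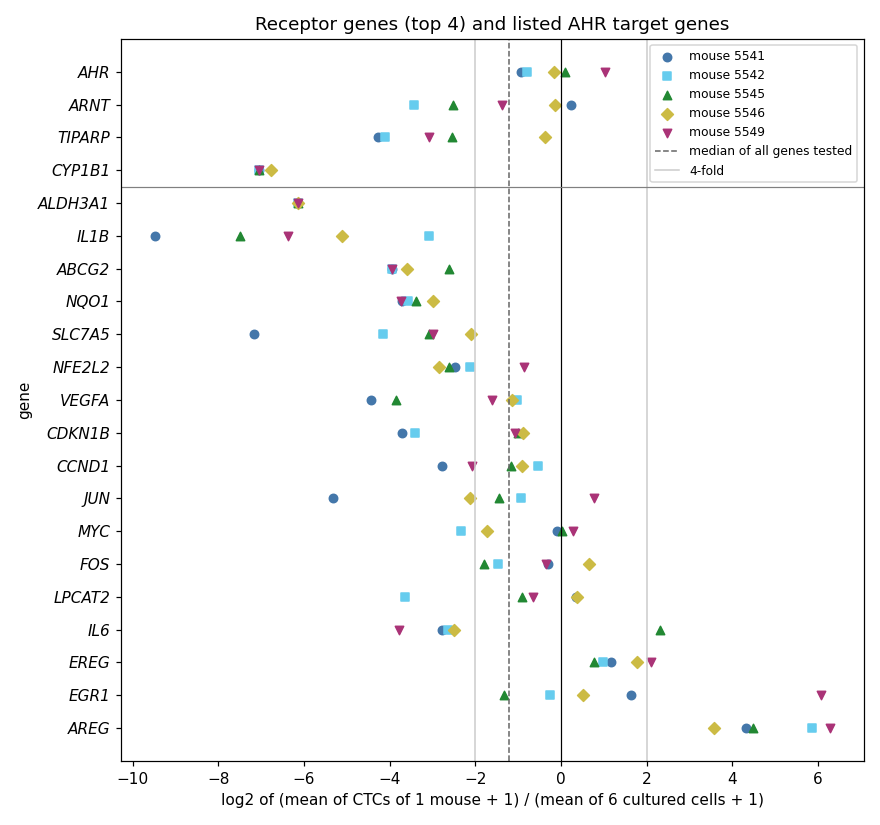
Log2 ratio of the mean of the CTCs of each mouse to the mean of 6 cultured LM2 cells, with 1 added to both, for AHR, ARNT, TIPARP and CYP1B1 and for the 17 listed AHR target genes that passed the minimum mean. Symbols stand for the 5 mice, the dashed line is the median over all genes tested, -1.20, and the grey lines mark 4-fold. CYP1B1 and ALDH3A1 lie far to the left in each mouse, AREG lies to the right in each mouse, and ARNT and TIPARP spread widely between mice.

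The genes of HSP90 and p23, which hold AHR in the cytoplasm, were read in all 37 CTCs. Of 16 listed chaperones and partners 12 were tested and 0 were called, near the 5.31% lower and 0.0655% higher of all genes, with a median ratio of -1.34 against -1.20. HSP90AA1 and HSP90AB1, the cytosolic forms of HSP90, had means of 3046 and 2285 over CTCs against 6508 and 6261 in culture. PTGES3, which encodes p23, had 391 against 1575. These genes have processed pseudogenes, to which unique-read counting could lose reads. ARNT2, a paralog of ARNT, was read in 3 CTCs and 2 cultured cells.

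Of 13 genes with a row that make or carry ligands derived from tryptophan 6 were tested and 0 were called, near the shares over all genes of 5.31% lower and 0.0655% higher, with a median ratio of -1.67. IDO1 and TDO2, which open the kynurenine pathway, were read in 2 CTCs and 1 CTC and in 1 cultured cell each, while KYNU, which cleaves kynurenine, was read in 19 CTCs and 5 cultured cells. SLC3A2, the heavy chain that partners SLC7A5, had a mean of 552 over CTCs against 1157 in culture, SLC1A5, a glutamine transporter, 78.1 against 390, and WARS1, the tryptophanyl-tRNA synthetase, 100.1 against 274.

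Of 18 redox partners and conjugating enzymes that serve CYP1 reactions 13 had a row and 9 were tested. None of the 9 was called, against 5.31% lower and 0.0655% higher of all genes, with a median ratio of -1.05. Their highest means over CTCs were those of GSTP1, CYB5R3 and CBR1 at 249, 208 and 108, against 414, 347 and 247 in culture. POR, the reductase that passes electrons to CYP1B1, was read in 24 of 37 CTCs and in all 6 cultured cells. Of 20 other CYP genes 4 were tested, with a median of -1.80, and 1 of them, CYP2U1, was called lower, against 5.31% of all genes. CYP2U1 was read in 15 CTCs and was at most 37.5 there against a maximum of 152 in LM-3, and it was no longer called when each mouse was centred on its median. CYP20A1, CYP2R1 and CYP27A1 had the highest means over CTCs among them, at 34.7, 7.90 and 6.34, against 58.2, 13.7 and 6.44. Of the 8 PARP genes tested beside TIPARP 0 were called, near the 5.31% lower of all genes, with a median of -1.59. PARP1, PARP2 and PARP3 led the family in CTCs at 35.5, 33.9 and 22.1 against 181, 152 and 21.7.

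Of 8 genes with a row that lie beside or across the members on the chromosome 6 were tested and 0 were called, near the 5.31% lower and 0.0655% higher of all genes, with a median ratio of -1.50. PDCD6, which lies upstream of AHRR, was read in 34 CTCs at a mean of 45.3 against 71.2 in culture. EDC3 and CSK, which lie on either side of CYP1A1, had means of 10.2 and 9.88 over CTCs against 46.5 and 22.9. A readthrough gene of PDCD6 and AHRR shares 58.7% of the exon bases of AHRR and had no row in the table either.

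Genes most like AHR across the 37 CTCs were EBPL, TSC22D2, FRA10AC1, IRS2 and CNOT6L, with Spearman's ρ of 0.542, 0.539, 0.536, 0.523 and 0.521. They were taken from 7014 genes with reads in at least 50% of CTCs, over which the median ρ with AHR was 0.0873. Within mouse 5545 (10 CTCs) the 5 genes had ρ from 0.315 to 0.612 and within mouse 5546 (17 CTCs) from 0.333 to 0.607. The values describe cells that share mice, depth and genes detected. ARNT had a ρ of 0.150 with AHR and TIPARP one of 0.168. No such likeness was computed for CYP1B1, which had reads in 1 CTC.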

How the data were processed

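Single-cell values of 37 CTCs from 5 mice and 6 cultured LM2 cells were used, and 4 samples of the series with no column were not used. The deposited table holds a signal, gene reads that the authors divided by a DESeq2 (1.42.1) size factor per cell. Per the paper and the labels, alignment to GRCh38 used STAR 2.7.10a, and the authors counted uniquely mapped reads without strand, and left out CTCs of low mapping rate or high mitochondrial share. Whole reads were recovered for 100% of nonzero values (tolerance 0.001), giving the depth of each cell. Symbols and coordinates were those of GENCODE release 44 (GRCh38), matched for 25565 of 25739 identifiers.

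The members and lists were chosen with earlier results of these data known. Mouse means were compared with the culture mean by a rule of size (4-fold in each mouse, pseudocount 1, larger mean at least 8), because the culture is a single sample and cells of 1 mouse are no replicates. As an alternative, quasi-likelihood edgeR 4.0.16 on reads summed per mouse called 0 genes higher and 0 lower of 13813 at an adjusted p threshold of 0.05 (241 at unadjusted p under 0.05), and DESeq2 1.42.0 called 14 higher and 1 lower of 10378 (320 unadjusted). Both give the culture the spread between mice. Named genes are the members, list genes meeting the rule, the 3 of each list with the highest CTC mean and the 5 most like AHR. Further genes named (CYP1B1-AS1, RMDN2, ARNT2, EREG, IDO1, TDO2, KYNU, POR, GPRC5C, VIPR1 and TGFA) were chosen after their values were seen. Steps were tested on simulated data. R 4.3.3 and Python 3.11.15 (scipy 1.17.1, pandas 2.3.3, numpy 2.4.6) were used. The alternatives were other folds, pseudocounts, averages and scalings, thinning to 469614 reads, and leaving out cells or mice. One gene of the lists is not reported here.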

Additional observations from a re-analysis of the deposited data

Results flagged for a closer look

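In 8 of 13 groups of 4 to 10 cells with a member read, the highest cell stood far from the rest of its group. The rate of about 1 in 20 that chance gives holds for measurements without many zeros and not for these sparse counts, in which a lone cell with a read always meets the criterion, so the number is a description. AHR was 28.6 normalized counts in CTC 5542-8 (next cell 3.19), 89.1 in 5545-4 (next 20.6) and 113 in 5549-6 (next 11.6). ARNT was 6.61 in 5545-3 (6 reads, next 2.41) and 11.7 in 5549-6 (7 reads, next 1.12). TIPARP was 22.2 in 5545-1 (28 reads, next 0.885) and 0.461, a single read, in 5542-2, the 1 CTC of its mouse with a read. CYP1A1 was 3.56 in cultured cell LM-P3 (3 reads) and 0 in the other 5. CTC 5549-6 appears under both AHR and ARNT.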

How the results depend on the processing

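CYP1B1 was chosen on this contrast and had reads in 1 CTC, so the sign of its ratio was in effect fixed in advance. The log2 ratio of CYP1B1 was below 0 in all 23 alternatives, which adds no support. From -6.98 it moved to -9.87 with a pseudocount of 0.1, -4.10 with 8, -5.70 with medians, -6.57 with RPM scaling, -6.52 with thinned reads and -6.07 without LM-3, its highest cultured cell. Leaving out 1 mouse or cultured cell gave -7.24 to -6.07. Its 1 CTC with a read became 0 at a minimum normalized count of 8, and 0 to 1 without 1 mouse. AHR, at 0.03, was 0.57 with RPM scaling, 0.81 with thinned reads, -0.51 with medians and -0.56 without the highest CTC. The AHR ratio was -0.79 in CTCs with at least the genes of the lowest cultured cell and -0.54 without the 4 CTCs richest in blood markers. Leaving out 1 mouse or cultured cell gave -0.38 to 0.87 for AHR, so its sign is not settled. Relative to the median of all genes AHR stood at 1.23. ARNT and TIPARP stayed below 0 in 23 alternatives, from -2.73 to -0.28 and from -4.17 to -1.19. The median of all genes was itself at -1.20, and relative to it ARNT stood at 0.34 and TIPARP at -0.89. ARNT was read in 17 CTCs and in 5 without mouse 5546.

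The counts of genes higher and lower by the rule of size, 6 and 487, were 24 and 2298 at 2-fold, 3 and 144 with a pseudocount of 8, 12 and 137 with RPM scaling, 49 and 27 with each mouse centred on its median, 0 and 0 by edgeR and 14 and 1 by DESeq2. At 8-fold 80 were lower. Leaving out 1 mouse or cultured cell gave 5 to 13 higher and 397 to 757 lower. The largest ρ with AHR was 0.489 to 0.669 without 1 mouse. Centring, the subset by genes of the cultured cells, the exclusion by blood markers and the pooled ratios and ranks without 1 cultured cell were chosen after seeing the data. No paired analysis was possible because the numbers in the labels name picked cells and no test between groups of cells was made. Depth limits CYP1A1 and the CTCs at 0: under 3 reads in a group was not detectable.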
